A study of Mus musculus with 9 samples.

Results

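Oxidative phosphorylation is the process by which mitochondria turn the electrons of NADH and succinate into ATP, and the genes described here are the ones that build its machinery. They were chosen by symbol: protein-coding genes starting with Ndufa, Ndufb, Ndufc, Ndufs, Ndufv, Uqcr, Cox4 to Cox8 or Atp5, the genes Sdha to Sdhd and Cyc1, and the mitochondrially encoded mt-Nd, mt-Co, mt-Cyt and mt-Atp genes. The rule took 107 of the 53465 genes in the deposited table. Of these, 94 lie in the nucleus and 13 in the mitochondrial genome, and both sets are described separately. The prefixes also take in 8 Ndufaf genes, which code for assembly factors of complex I, the supercomplex factor Cox7a2l, and Atp5s, which is no subunit in spite of its name. Another 13 genes with matching symbols are not protein coding and were left out.

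The respiratory chain passes electrons from complex I (NADH dehydrogenase) or complex II (succinate dehydrogenase) through complex III (the cytochrome bc1 complex) to complex IV (cytochrome c oxidase), which hands them to oxygen. Complexes I, III and IV pump protons across the inner membrane as they do so, and complex V (ATP synthase) lets the protons back to make ATP. Every complex but the second contains subunits from both genomes: the mitochondrial DNA codes for a few membrane-embedded core proteins, and nuclear genes code for all the others. In macrophages, the balance between this machinery and glycolysis is known to differ between activation states and between cultured and tissue-resident cells.

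The study profiled macrophages of the synovium, the membrane that lines joints, by bulk RNA sequencing of 9 libraries, 3 in each of 3 groups. Lining macrophages (libraries A, B and C) and interstitial macrophages (D, E and F) were sorted from the hind paws of healthy mice of the strain Cx3cr1-GFP as CD45+CD11b+F4/80+ cells that were GFP+ or GFP-; in this strain green fluorescent protein is made from the locus of the chemokine receptor gene Cx3cr1, so the 2 sorts are defined by activity of that locus. Bone marrow-derived macrophages (BMDM; G, H and I) came from C57BL/6 mice and were grown for 5 days in medium conditioned with the growth factor MCSF. All 3 groups share the library preparation, from 500 ng RNA with a stranded kit that selects polyadenylated RNA, and single-end reads of 101 bases; the labels name no other treatment. The labels used here do not give age, sex or the state of the second Cx3cr1 allele. They also do not say whether the 3 libraries of a group come from separate mice or cultures, so p-values measure the spread between these libraries, which may be technical. Sorted and cultured cells differ in tissue, strain, sorting and culture at once, and these cannot be told apart.

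Library totals ran from 2194920 to 11137451 counts in the 6 sorted libraries and from 19427273 to 22499823 in the 3 BMDM libraries. Levels are given as CPM, a gene's count relative to the total of its library, after scaling by the trimmed mean of M-values (TMM). A total of 12610 genes passed the filter on low counts and were tested with edgeR, and a gene is said to have risen or fallen only at a Benjamini-Hochberg adjusted p under 0.05 over all of them. Cx3cr1, whose locus drives the marker of the sort, stood at 663 to 775 CPM in the lining libraries and 2.66 to 7.86 CPM in the interstitial ones. All 12 macrophage markers examined (Ptprc, Csf1r, Adgre1, Cd68, Mertk and others) were expressed, with a summed level of 32426 to 45624 CPM in lining, 19341 to 34515 in interstitial cells and 17060 to 21042 in BMDM libraries. Beside every contrast stand other shifts, whose part in the results below was not tested. The 14 dissociation and immediate early genes summed to between 6986 and 13361 CPM in sorted libraries and 554 to 592 in BMDM, the 12 cell cycle genes to between 124 and 463 against 3604 to 3823, and the 12 fibroblast markers to between 184 and 733 against 3.16 to 3.63. Against BMDM, all 14 dissociation genes and all 12 fibroblast markers were called higher in both sorted groups, and 11 and 12 of the 12 cell cycle genes lower in lining and interstitial cells. Of the 12 macrophage markers 8 were higher in lining, and 6 higher and 2 lower in interstitial cells. Called higher in lining and interstitial cells were 4 and 5 of 10 skeletal muscle markers, 3 and 7 of 11 endothelial, 4 and 4 of 7 smooth muscle and pericyte, 5 and 7 of 8 dendritic cell, 2 and 3 of 3 lymphocyte, 4 and 5 of 6 mast cell, 3 and 3 of 4 erythroid and 1 and 1 of 8 neutrophil markers tested; called lower were 2 and 1 endothelial, 5 and 1 neutrophil, 1 and 1 mast cell markers and, in lining alone, the fat cell marker Fabp4, 1 of 2 tested. Between lining and interstitial cells, the genes of these lists called by edgeR were Fcgr1, Cd68 and the pericyte marker Cspg4 (higher) and Fabp4, Pecam1, Cd209a and Hdc (lower). Summed levels in lining and interstitial libraries were 49.9 to 356 and 71.0 to 561 CPM for endothelial markers, 2.42 to 43.2 and 55.4 to 203 for neutrophil, 12.1 to 61.9 and 122 to 190 for dendritic cell, 25.5 to 52.9 and 34.0 to 56.0 for lymphocyte, 5.82 to 20.5 and 15.5 to 51.8 for mast cell, 18.8 to 164 and 13.6 to 426 for erythroid, and 20.6 to 32.1 and 33.1 to 52.9 for fat cell markers. For smooth muscle and pericyte markers they were 699 to 1008 and 90.9 to 268 CPM, without overlap. Over the 7 of these markers tested, the median log2 fold change of lining against interstitial was -0.42. The higher sum in lining thus does not hold for most of that list. Fibroblast markers summed to 184 to 329 and 204 to 733 CPM, and skeletal muscle markers to 33.0 to 44.1 and 40.8 to 65.0. Of the 13 fat cell markers, Lep, Plin4 and Cidea had no count in any library, and all others had counts in at least 1. Of the 12 lymphocyte markers, Ncr1 alone had no count in any library.

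Of the 13 mitochondrially encoded genes, 7 had counts and 6 were listed at 0 in all 9 libraries: mt-Co2 and mt-Co3 (core subunits of complex IV), mt-Atp6 and mt-Atp8 (complex V), and mt-Nd3 and mt-Nd4l (complex I). A listing at 0 is not read as absent expression here: 5 of the 6 genes have a near-identical copy elsewhere in the genome. The copies are unprocessed pseudogenes that follow each other on the minus strand of chromosome 1 (GRCm38). Over the bases that can be compared, mt-Co2 and Gm28661 were identical over 681 bases, mt-Co3 and Gm28437 over 783, mt-Atp6 and Gm10925 over 678, and mt-Nd4l and Gm10222 over 294. The pair of mt-Nd3 and Gm28438 had 1 mismatch in 345 bases, T3C, written as the base of the mitochondrial gene, its position from the first base of the gene, and the base of the copy. The first 60 bases of 2 such pairs are printed to show how little a read could use to tell them apart; capitals mark the only base that differs.
mt-Nd3 (chrM:9459-9518, plus strand): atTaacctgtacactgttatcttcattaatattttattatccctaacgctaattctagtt
Gm28438 (chr1:24613060-24613119, minus strand): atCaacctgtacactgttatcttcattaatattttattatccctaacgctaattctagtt
mt-Co3 (chrM:8607-8666, plus strand): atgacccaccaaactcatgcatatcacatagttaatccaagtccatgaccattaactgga
Gm28437 (chr1:24613912-24613971, minus strand): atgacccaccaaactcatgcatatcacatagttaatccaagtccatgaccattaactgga

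When each gene was cut into all windows of 101 bases, the read length, the share of windows that also occurs at another annotated locus was 99.9% for mt-Co3, 99.5% for both mt-Co2 and mt-Atp6, 98.5% for mt-Nd4l and 97.6% for mt-Nd3. It was 60.7% for mt-Nd4, 30.7% for mt-Co1 and 3.09% for mt-Nd2, and 0 for mt-Nd1, mt-Nd5, mt-Nd6 and mt-Cytb. The sixth gene listed at 0, mt-Atp8, shares no window with an annotated gene; on chromosome 1 its position falls in the unannotated gap between Gm28661 and Gm10925, whose sequence was not used here. The copies on chromosome 1 took almost no counts themselves, at most 2 in any library for Gm28438, Gm28437, Gm10925, Gm28661, Gm29216, Gm10222 and Gm28439. Per the deposited header, counting was strand-specific and set no option for reads that match several places or several genes. In mt-Co1 (catalytic subunit of complex IV) 443 of 1445 windows are shared. The copy Gm29216, which matches from base 1054 of 1545 on, holds 379 of them, and Gm13340 on chromosome 2 holds 77. Gm13340 had 3 to 30 counts in the 9 libraries. The junction is printed with the part aligned to the copy in capitals, which still holds all 6 mismatches between mt-Co1 and Gm29216 (T1056A, C1057T, A1059G, A1060G, C1062A and A1066T).
mt-Co1 (chrM:6351-6410, plus strand): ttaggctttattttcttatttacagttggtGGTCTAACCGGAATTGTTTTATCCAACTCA
The levels of mt-Co1 and mt-Nd4 may therefore be too low against those of other genes.

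**Figure D1:**
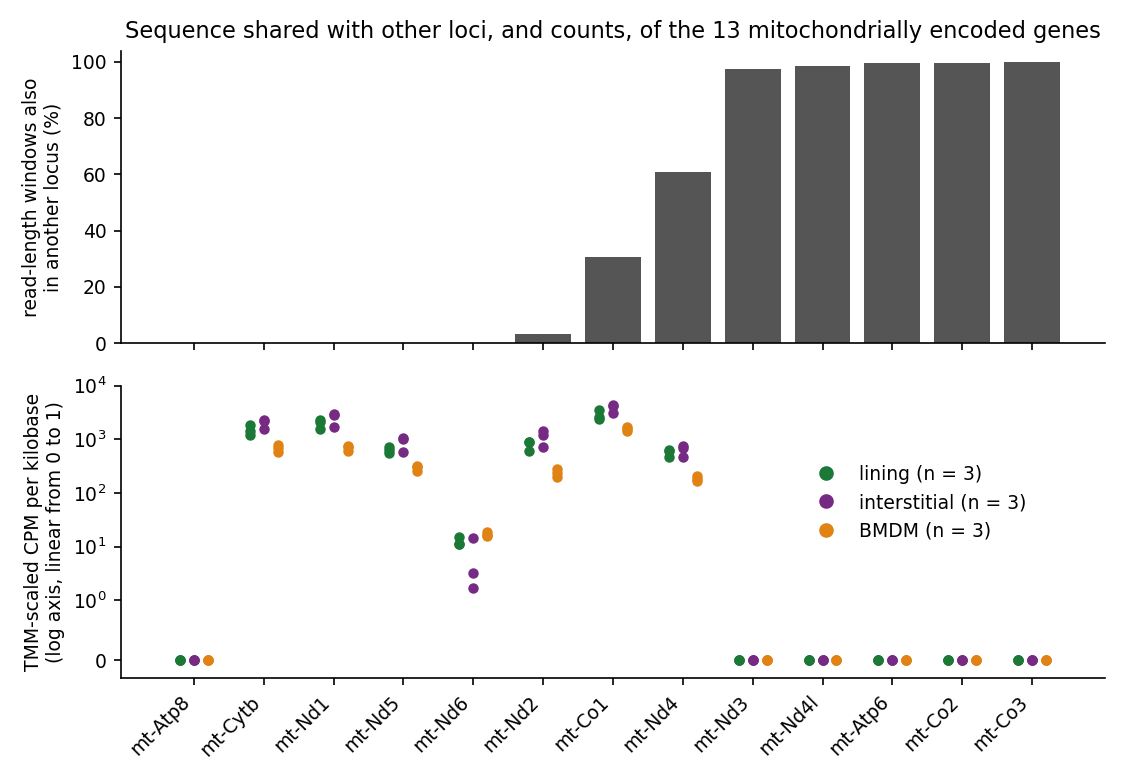
Top, percentage of the 101-base windows of each of the 13 mitochondrially encoded genes that also occur at another annotated locus. Bottom, TMM-scaled CPM per kilobase in each of the 9 libraries (points, coloured by group, on a log axis that is linear from 0 to 1). The 5 genes at 97.6% or more are at 0 in every library, as is mt-Atp8, which shares no window with an annotated gene.

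The 7 mitochondrially encoded genes with counts together made up 8839 to 12722 CPM in the lining libraries, 10550 to 16514 in the interstitial ones and 4395 to 5395 in BMDM. No sorted library came as low as a BMDM library. Per kilobase, which allows genes to be compared, mt-Co1 was the highest in every group (2812 ± 574 CPM per kilobase in lining, 3881 ± 721 in interstitial cells and 1559 ± 133 in BMDM; SD, n = 3), followed by mt-Nd1 (1994 ± 367, 2505 ± 689 and 684 ± 75.9) and mt-Cytb (1492 ± 328, 1984 ± 385 and 683 ± 92.7). In BMDM, mt-Nd1 and mt-Cytb did not differ beyond their spread. The order of mt-Nd2 and mt-Nd5 was the reverse in BMDM (239 ± 40.4 and 295 ± 30.6) of that in lining (790 ± 167 and 630 ± 79.6), with SDs that overlap in both. Counted over only the windows that occur nowhere else, mt-Nd4, sixth by its whole length, had a level of 1541 ± 237 CPM per kilobase of windows in lining, against 2226 ± 410 for mt-Nd1. The lowest was mt-Nd6, the one subunit gene on the opposite strand of the mitochondrial DNA, at 12.5 ± 2.3, 6.57 ± 7.1 and 17.0 ± 1.6 CPM per kilobase in lining, interstitial and BMDM. The kit selects polyadenylated RNA, and how well it captures mt-Nd6 against the other genes was not tested.

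Against BMDM, 6 of the 7 mitochondrially encoded genes tested were higher in both sorted populations and none was lower, where 23.1% of all genes tested were called higher in lining and 23.4% in interstitial cells. Both contrasts use the same BMDM libraries. The groups did not overlap for these 6 genes, a property shared by 29.2% of all genes tested in the same direction for lining and by 28.4% for interstitial cells. The median log2 fold change over the 7 genes was 1.13 in lining and 1.60 in interstitial cells, beside medians of 0.00 and -0.01 over all genes tested.

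Among the complex I genes, mt-Nd2 (a subunit of the proton-pumping arm) showed the largest contrast. Its level was 921, 619 and 919 CPM in lining A, B and C, 1264, 1487 and 732 in interstitial D, E and F, and 290, 248 and 206 in BMDM G, H and I. All 6 sorted libraries lay above all BMDM libraries, with a log2 fold change of 1.72 ± 0.25 (SE) in lining (edgeR adjusted p = 0.00018) and 2.23 ± 0.26 in interstitial cells (adjusted p = 2.4e-05). For mt-Nd1, the subunit next to the quinone-binding site, the levels were 2032, 1512 and 2180 CPM in lining, 2698, 2853 and 1641 in interstitial cells and 715, 675 and 574 in BMDM. Its log2 fold changes were 1.54 ± 0.21 (adjusted p = 0.00012) and 1.87 ± 0.22 (adjusted p = 2.5e-05). mt-Nd4 and mt-Nd5, the other large antiporter-like subunits tested, rose by 1.61 ± 0.19 and 1.10 ± 0.21 log2 units in lining (adjusted p = 2.8e-05 and 0.0014) and by 1.78 ± 0.19 and 1.60 ± 0.22 in interstitial cells (adjusted p = 1.2e-05 and 8.9e-05).

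In complex III, mt-Cytb (cytochrome b, which carries both quinone sites) stood at 1606, 1392 and 2122 CPM in lining, 2569, 2474 and 1764 in interstitial cells and 886, 786 and 674 in BMDM libraries. It rose by 1.13 ± 0.20 log2 units in lining (adjusted p = 0.00063) and 1.54 ± 0.20 in interstitial cells (adjusted p = 5.8e-05). In complex IV, mt-Co1 had the smallest of these contrasts. It read 4004, 3678 and 5351 CPM in lining, 6549, 6725 and 4713 in interstitial cells and 2632, 2366 and 2227 in BMDM, a log2 fold change of 0.85 ± 0.18 (adjusted p = 0.0026) and 1.32 ± 0.18 (adjusted p = 0.00012). mt-Nd6 went against the others without passing the test: its counts were 12, 61 and 21 in lining, 2, 84 and 8 in interstitial cells and 189, 197 and 186 in BMDM libraries, with log2 fold changes of -0.45 ± 0.62 (adjusted p = 0.59) and -1.23 ± 0.62 (adjusted p = 0.13). Without interstitial E, mt-Nd6 was called lower in interstitial cells (log2 fold change -2.69, adjusted p = 0.0038), and limma-voom called it lower with all 9 libraries (-1.38, adjusted p = 0.043). All 6 rises in interstitial cells and those of mt-Nd1, mt-Nd2, mt-Nd4 and mt-Cytb in lining cells kept their calls in all 18 alternative settings. mt-Co1 and mt-Nd5 lost theirs in lining cells (adjusted p = 0.090 and 0.085) only when the 3 shallowest libraries, lining A and C and interstitial D, were left out together, which leaves 1 lining library.

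Between the sorted populations, no mitochondrially encoded gene was called in either direction by edgeR, DESeq2 or limma-voom, where 5.79% of all genes tested were called by edgeR. The median log2 fold change of lining against interstitial was -0.41 over the 7 genes, and 6 of them lay below 0, among them mt-Co1 at -0.46 ± 0.18 (adjusted p = 0.18), mt-Nd5 at -0.50 ± 0.21 (adjusted p = 0.22), mt-Nd2 at -0.50 ± 0.25 (adjusted p = 0.29) and mt-Cytb at -0.41 ± 0.19 (adjusted p = 0.27). The groups overlapped for all 7 genes, and 2 passed an unadjusted p of 0.05. The outcome turned on library F: its levels lay within the lining range for mt-Nd1, mt-Nd2, mt-Nd4, mt-Nd5, mt-Cytb and mt-Co1, and without it mt-Nd2 (-0.78, adjusted p = 0.039), mt-Co1 (-0.64, adjusted p = 0.042) and mt-Nd5 (-0.77, adjusted p = 0.0081) were called lower in lining. F also had the highest summed endothelial markers of the sorted libraries, 561 CPM against 356 in C and 49.9 to 93.5 in A, B, D and E; their part in this result was not tested. The mitochondrial ribosomal RNAs, which are no members but come from the same mitochondrial genome and were looked at after the values were seen, summed to 914 ± 230 CPM in lining, 1514 ± 277 in interstitial cells and 172 ± 4.4 in BMDM. How well a kit that selects polyadenylated RNA captures these ribosomal RNAs was not tested. Of these, mt-Rnr1 was called lower in lining than in interstitial cells (log2 fold change -0.82 ± 0.19, adjusted p = 0.024) and mt-Rnr2 was not (-0.68 ± 0.19, adjusted p = 0.061). The call of mt-Rnr1 was lost when A, B or E was left out (adjusted p up to 0.10), and mt-Rnr2 was called without lining C or interstitial D.

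**Figure D2:**
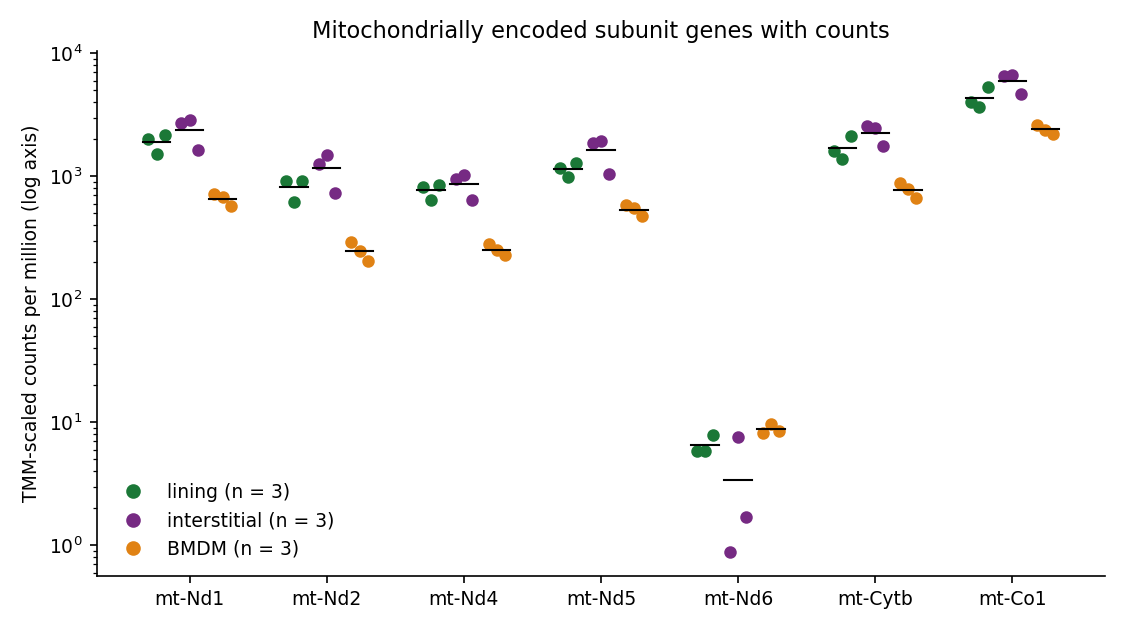
TMM-scaled CPM (log axis) of the 7 mitochondrially encoded genes with counts, one point per library and a line at each group's mean (n = 3). Sorted libraries lie above BMDM for all genes but mt-Nd6, and interstitial F lies below D and E in the other 6 genes.

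The nuclear members read differently. Of 94 genes, 89 passed the filter and were tested; the 5 others were Cox4i2, Cox7b2, Cox8b, Cox8c and Ndufa4l2. Their summed level was 7831, 6639 and 6279 CPM in lining A, B and C, 7274, 5802 and 7208 in interstitial D, E and F, and 8567, 8900 and 8519 in BMDM. All sorted libraries lay below all BMDM libraries, and the lining and interstitial libraries overlapped. The summed mitochondrially encoded level divided by the summed nuclear level was 1.33 to 2.03 in lining, 1.46 to 2.85 in interstitial cells and 0.516 to 0.630 in BMDM libraries. This ratio is a description and was given no test. In bulk RNA, fewer cells that express a gene and less of its RNA per cell cannot be told apart.

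**Figure D3:**
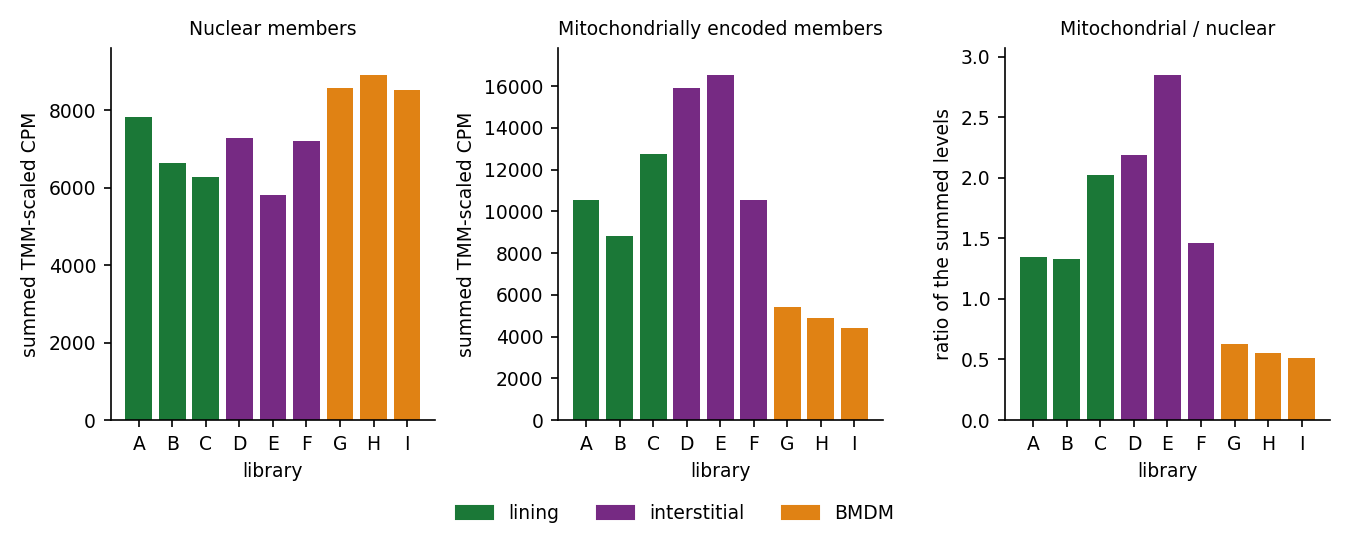
Summed TMM-scaled CPM of the nuclear members, of the mitochondrially encoded members, and the ratio of the second to the first, one bar per library from 0 and coloured by group. The BMDM libraries have the highest nuclear sums, the lowest mitochondrial sums and ratios between 0.516 and 0.630, against 1.33 or more in every sorted library.

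Per kilobase of exon, the highest nuclear members in BMDM were Atp5a1 (the alpha subunit of ATP synthase, 261 ± 5.2 CPM per kilobase), Cox6b1 (256 ± 4.6), Atp5b (the catalytic beta subunit, 249 ± 9.97), Cox6a1 (224 ± 12.6) and Cox4i1 (213 ± 4.1). The first 3 did not differ beyond their spread, nor did Cox6a1 and Cox4i1. In lining cells the same 5 genes lay between 170 ± 23.2 for Atp5b and 209 ± 22.7 for Cox6b1 and did not separate. Some subunits of the same complexes were listed far lower, and part of that may be counting: Atp5l (subunit g of ATP synthase) stood at 0.36 CPM per kilobase in BMDM with 61.3% of its windows also found in pseudogenes, and Ndufb4 at 2.94 with 33.3%. Ndufab1, the acyl carrier protein of mitochondria, stood at 3.25 with 7.14% shared, and Ndufb2 at 1.84 with none. These levels also depend on the exon length they are divided by. It was 6883 bases for Ndufab1, 5628 for Ndufb2, 6443 for Atp5l and 1170 for Ndufb4. The median over the nuclear members tested was 1552. Low levels of such genes are uncertain.

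Between lining and interstitial cells, the test called hardly any nuclear member, and likeness of the groups was not tested. One gene of 89, Atp5g2, was called higher in lining and none lower by edgeR, where 3.74% of all genes tested were called higher and 2.05% lower. Over all genes the calls split into 471 higher and 259 lower; with libraries scaled by their totals alone the share called higher fell from 64.5% to 53.8%. The median log2 fold change of the nuclear members was 0.08, with a middle 50% from -0.10 to 0.24, beside -0.01 and a middle 50% from -0.36 to 0.32 over all genes tested. With scaling by library totals the members' median was -0.01, so its sign is not settled. Limma-voom called none lower either, and DESeq2 called 1, Ndufaf1. At an unadjusted p of 0.05, 9 members were higher and 2 lower; groups did not overlap for 12 members higher in lining and 4 lower, 13.5% and 4.49% of the 89 against 9.92% and 8.66% of all genes tested. By complex the medians were 0.05 for the 36 genes of complex I, -0.03 for the 4 of complex II, 0.17 for the 9 of complex III, 0.18 for the 14 of complex IV and -0.03 for the 16 of complex V.

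Against BMDM, the nuclear members leaned lower in both sorted populations, by small amounts. In lining cells 23 of 89 fell and 1 rose, where 43.5% of all genes tested were called in either direction (44.8% in interstitial cells); that is 25.8% lower against 20.5% of all genes tested, and 1.12% higher against 23.1%. In interstitial cells 30 fell and 2 rose, 33.7% against 21.3% and 2.25% against 23.4%. The share that fell was thus not far above the background, and the share that rose was well below it. Medians were -0.23 in lining, with 73 of 89 below 0, and -0.35 in interstitial cells, with 76 below 0. The middle 50% ran from -0.51 to -0.05 and from -0.61 to -0.13, a narrower band than that of all genes tested (-0.64 to 0.80 and -0.66 to 0.83). Groups did not overlap for 38 members lower and 5 higher in lining, 42.7% and 5.62% of the 89 against 33.9% and 29.2% of all genes, and for 46 lower and 4 higher in interstitial cells, 51.7% and 4.49% against 33.8% and 28.4%. Nuclear members are short transcripts: 62 of the 89 fall in the shortest length class of genes tested (up to 2294 bases of exon), in which the median of all genes was -0.03 in lining and -0.06 in interstitial cells and that of the members -0.16 and -0.33. Without one BMDM library the number of members that fell dropped to between 11 and 16 in lining (11 without H, 15 without G) and 16 to 18 in interstitial cells, and without interstitial E it was 20 in the latter. Without the 3 shallowest libraries, 55 fell in interstitial cells, and limma-voom called 46 lower there. Scaling by library totals moved the median of all genes in lining cells by -0.11, and that of the members to -0.35.

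**Figure D4:**
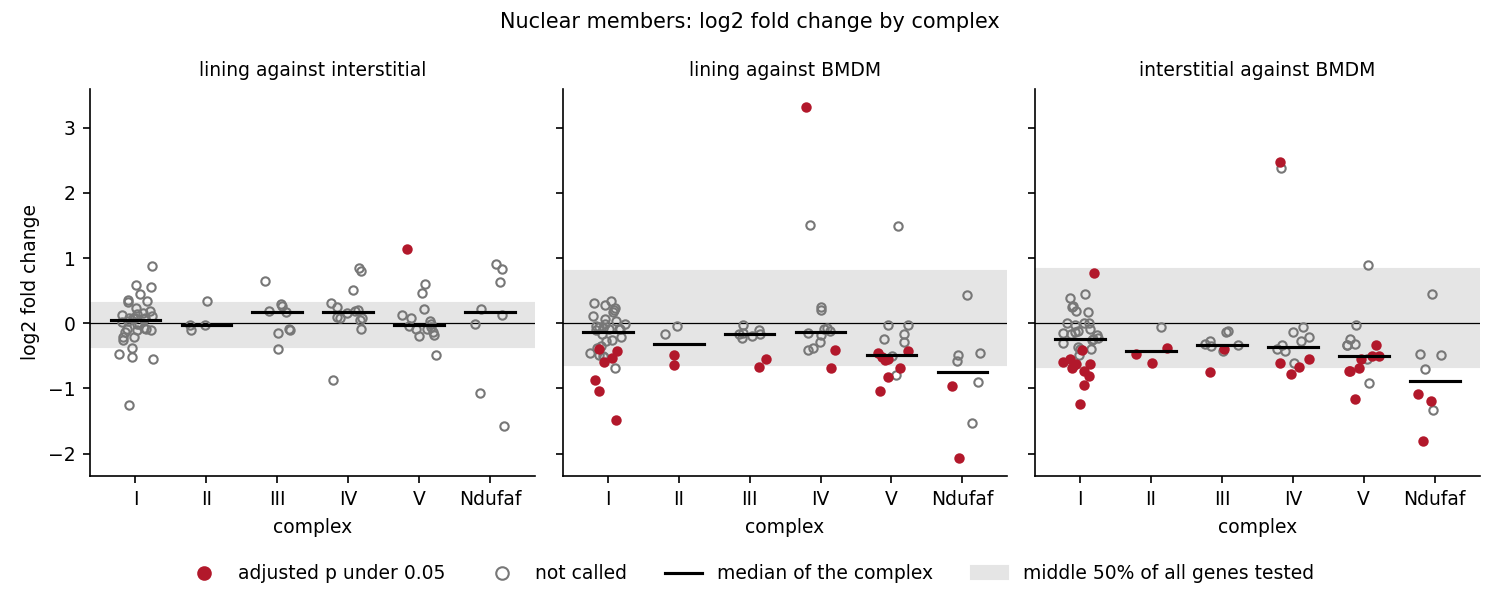
Log2 fold change of each tested nuclear member (points) by complex, with the Ndufaf assembly factors last, in the 3 comparisons. Filled red points passed an adjusted p of 0.05, bars are medians, and the grey band holds the middle 50% of all genes tested. Medians of every group lie below 0 in both contrasts with BMDM, and complex V and the Ndufaf genes lie lowest.

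In complex V, 8 of the 16 tested genes fell in lining and 8 fell in interstitial cells (beside 20.5% and 21.3% of all genes tested), none rose (23.1% and 23.4% of all genes), and the medians were -0.48 and -0.50. Atp5j (coupling factor 6, part of the stalk) read 74.2, 76.1 and 80.0 CPM in lining, 86.9, 79.0 and 78.2 in interstitial cells and 140, 139 and 128 in BMDM. No sorted library came within reach of a BMDM one, and the log2 fold changes were -0.82 ± 0.13 (edgeR adjusted p = 0.0003) and -0.74 ± 0.13 (adjusted p = 0.00059). Atp5f1 (subunit b of the stalk) read 144, 105 and 117 CPM in lining, 116, 113 and 125 in interstitial cells and 197, 199 and 193 in BMDM, and fell by 0.69 and 0.73 log2 units (SE 0.14 in both; adjusted p = 0.0015 and 0.00096). Atp5o, the oligomycin sensitivity protein that joins stalk and head, fell by 0.57 ± 0.14 and 0.55 ± 0.14 (adjusted p = 0.0053 and 0.0058). In the catalytic part, head and central stalk together, Atp5a1, Atp5b and Atp5e were called lower in both populations. Their log2 fold changes lay between -0.34 and -0.68, and Atp5c1 and Atp5d (between -0.24 and -0.33) were not called. The calls in this part were less even under removal of 1 library. Atp5e lost its lining call without lining A or B or any BMDM library (adjusted p up to 0.13). Atp5b lost its calls without BMDM H in lining and without interstitial E or BMDM G or H in interstitial cells (up to 0.073). Atp5a1 lost its calls without BMDM G or H in lining and without interstitial E or any BMDM library in interstitial cells (up to 0.13). Conversely, Atp5d was called lower in both contrasts without interstitial D, and Atp5c1 in interstitial cells without D or F. The calls of Atp5j, Atp5f1 and Atp5o held in all 19 alternative settings in both contrasts. Atpif1, which codes for the inhibitor protein of ATP synthase and is no member by its symbol, stood at 80.4 ± 20.8 CPM in lining, 69.7 ± 13.1 in interstitial cells and 149 ± 11.5 in BMDM and fell as well (log2 fold change -0.89 ± 0.20, adjusted p = 0.0037, and -1.09 ± 0.20, adjusted p = 0.00089).

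The rotating c-ring of ATP synthase is made of 1 protein that is coded by 3 genes, Atp5g1, Atp5g2 and Atp5g3, and these did not move together. Atp5g2 (chr15:102662864-102672352, GRCm38, minus strand) read 24.3, 19.6 and 29.3 CPM in lining, 8.87, 9.74 and 14.0 in interstitial cells and 29.5, 24.4 and 19.7 in BMDM. Every interstitial library was below every other library, and lining and BMDM overlapped. The log2 fold change was 1.14 ± 0.30 for lining against interstitial (adjusted p = 0.044), -1.16 ± 0.29 for interstitial against BMDM (adjusted p = 0.0059) and -0.02 ± 0.28 for lining against BMDM (adjusted p = 0.96). The first of these calls is marginal: it was lost in 13 of 19 alternative settings, including the removal of any single library but interstitial F (adjusted p from 0.054 without lining B to 0.12 without interstitial E), while the second held in all 19. Of the windows of Atp5g2, 34.7% also occur in the pseudogenes Gm10175 and Gm10231, so its level may be too low against those of other genes. The pseudogenes took almost no counts themselves. Gm10231 had 0 in every library, and Gm10175 had 0 in every sorted library and 4, 1 and 3 in BMDM.

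Atp5g1 read 15.03, 35.8 and 28.2 CPM in lining, 59.0, 29.2 and 28.7 in interstitial cells and 56.3, 58.8 and 51.3 in BMDM. All lining libraries lay below BMDM, and interstitial D lay above all 3 BMDM libraries. It fell in lining cells (-1.03 ± 0.32, adjusted p = 0.022; lost without lining A, BMDM G or BMDM H, with adjusted p of 0.062, 0.053 and 0.060) and not in interstitial ones (-0.54 ± 0.32, adjusted p = 0.19). Atp5g3, the most abundant of the 3, stood at 116 ± 2.6 CPM in lining, 134 ± 10.9 in interstitial cells and 167 ± 11.9 in BMDM. It fell in lining cells (-0.52 ± 0.12, adjusted p = 0.0048), and in interstitial cells its value was -0.32 ± 0.12 (adjusted p = 0.051), which passed the test without any one of A, B, C, D or F. Without interstitial D, Atp5g1 was called lower in interstitial cells too (adjusted p = 0.016). Of the length-scaled counts of the 3 genes together, Atp5g2 made up 20.2%, 16.0% and 23.2% in lining, 6.46%, 8.61% and 10.7% in interstitial cells and 17.7%, 13.6% and 11.7% in BMDM libraries. Atp5g3 made up between 69.1% and 82.6% everywhere. Unscaled shares of Atp5g2 were 15.4%, 11.3% and 17.1% in lining and 4.25%, 6.07% and 7.67% in interstitial cells. In BMDM they were 12.3%, 9.44% and 8.12%. There Atp5g1 had unscaled shares of 23.5%, 22.7% and 21.1% and length-scaled shares of 11.5%, 11.2% and 10.3%. The order of Atp5g1 and Atp5g2 in BMDM thus turned on their exon lengths, 4912 and 1675 bases.

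**Figure D5:**
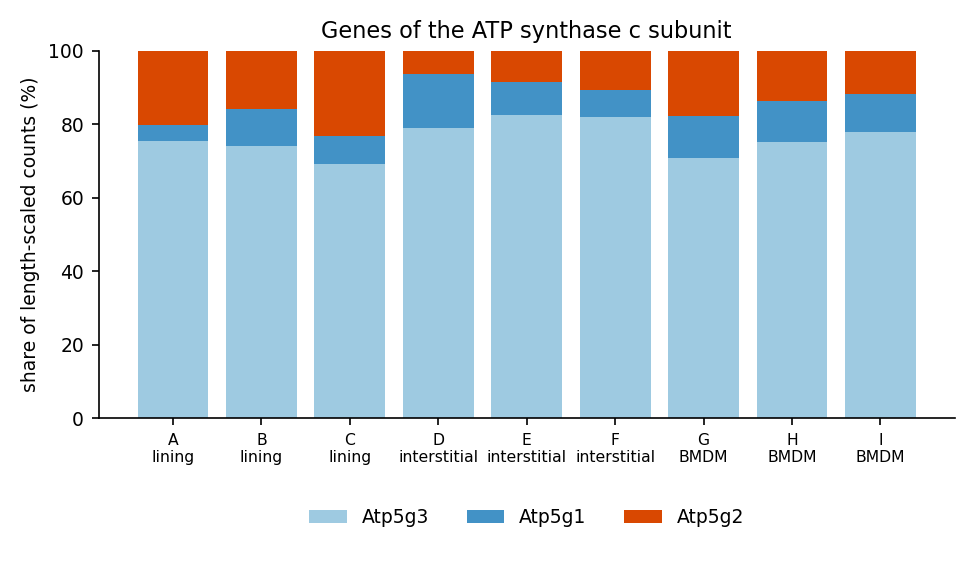
Share of length-scaled counts that each of the 3 genes of the c subunit takes in every library, stacked to 100%. Atp5g2 takes 16.0% to 23.2% in lining, 6.46% to 10.7% in interstitial cells and 11.7% to 17.7% in BMDM libraries.

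In complex I, 7 of 36 nuclear genes fell in lining cells and 10 in interstitial cells, where 1 rose. That is 19.4% and 27.8% lower, beside 20.5% and 21.3% of all genes tested, with medians of -0.13 and -0.24. Among its core subunits, Ndufs1, which carries iron-sulfur clusters, fell in both populations (-0.40 ± 0.13, adjusted p = 0.03, and -0.55 ± 0.13, adjusted p = 0.0051), Ndufs8 fell in interstitial cells only by the test (-0.73 ± 0.19, adjusted p = 0.0072; -0.28 ± 0.19, adjusted p = 0.25 in lining), and Ndufv1, Ndufv2, Ndufs3 and Ndufs7 were called in neither. Ndufs1 lost its lining call without lining B or any BMDM library (adjusted p up to 0.11). Without lining A, Ndufs8 was called in lining cells too. The difference between both populations was not called for Ndufs8 (0.46 ± 0.19, adjusted p = 0.21). The largest fall in lining cells was that of Ndufab1. Its level was 1.46, 12.6 and 7.88 CPM in lining, 20.4, 18.7 and 18.3 in interstitial cells and 21.8, 23.6 and 21.7 in BMDM. The lining levels came from 3, 132 and 21 counts in A, B and C, the first at the floor of 3 counts. All lining libraries lay below all others, with a wide spread, and the log2 fold change against BMDM was -1.48 ± 0.45 (adjusted p = 0.019, and 0.056 without BMDM H), that against interstitial cells -1.25 ± 0.46 (adjusted p = 0.15).

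Ndufc1, a small accessory subunit, fell in lining cells (-1.04 ± 0.27, adjusted p = 0.0084), from 27.7 to 31.5 CPM in BMDM to 11.6 to 16.5. Ndufs4, needed late in the assembly of the NADH-binding module, fell by 0.88 ± 0.24 in lining (adjusted p = 0.011) and by 0.62 ± 0.24 in interstitial cells (adjusted p = 0.048; lost without E or any BMDM library, up to 0.14). Ndufa2 fell by 0.60 ± 0.19 in lining (adjusted p = 0.021; 0.083 without BMDM H and 0.060 without BMDM I) and by 0.68 ± 0.18 in interstitial cells (adjusted p = 0.0098, held in all 19 alternatives). In interstitial cells the largest fall was in Ndufa12, an accessory subunit of the same module. It read 32.5, 22.2 and 12.8 CPM in lining, 11.5, 18.7 and 14.4 in interstitial cells and 36.2, 35.8 and 35.9 in BMDM. The interstitial fall was -1.24 ± 0.31 (adjusted p = 0.0063); the lining libraries spread from the interstitial range up towards BMDM, and there the test did not call it (-0.69 ± 0.31, adjusted p = 0.090). It was called there without lining A, interstitial D or the 3 shallowest libraries (adjusted p = 0.020, 0.048 and 0.018), with library totals (0.046) and with limma-voom (0.012). Ndufa3 fell by 0.81 ± 0.22 (adjusted p = 0.0096); in lining (-0.46 ± 0.22, adjusted p = 0.11) it was called without A, without D or without the 3 shallowest libraries, with library totals, with limma-voom and with only the 6 libraries compared. Ndufs5 fell by 0.95 ± 0.35 (adjusted p = 0.045), a call lost without interstitial D or E or any BMDM library (adjusted p from 0.054 to 0.15). Ndufa7, an accessory subunit, was the one that rose in interstitial cells: 75.4, 51.1 and 84.3 CPM against 36.7, 44.1 and 41.7 in BMDM. Its call (0.78 ± 0.29, adjusted p = 0.049) was lost in 11 of 19 alternatives, among them the removal of lining A or B, interstitial D or F, or any BMDM library (adjusted p from 0.051 to 0.16).

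Complex II, the one complex with no mitochondrially encoded subunit, is made of 4 proteins. Sdha, the flavoprotein that oxidises succinate, was among the most even members: 241, 202 and 219 CPM in lining, 226, 231 and 216 in interstitial cells and 308, 311 and 311 in BMDM. Both sorted groups lay below BMDM in all libraries, with log2 fold changes of -0.49 ± 0.12 (adjusted p = 0.005) and -0.47 ± 0.12 (adjusted p = 0.0065). Sdhc, a membrane anchor, fell by 0.65 ± 0.15 and 0.61 ± 0.15 (adjusted p = 0.0037 and 0.0047). The iron-sulfur subunit Sdhb fell in interstitial cells (-0.38 ± 0.13, adjusted p = 0.035, lost without interstitial F or any BMDM library at adjusted p from 0.060 to 0.11), where lining read -0.05 ± 0.13 (adjusted p = 0.81); the difference between both was not called (0.34 ± 0.14, adjusted p = 0.20). Sdhd, the other anchor, read -0.16 ± 0.15 and -0.05 ± 0.15 and was called in neither. The calls of Sdha and Sdhc held in all 19 alternatives.

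In complex III, all 9 nuclear genes lay below 0 in both contrasts, and 2 fell in each (22.2%, near the 20.5% and 21.3% of all genes tested). Uqcrc2, a core protein, fell in lining (-0.55 ± 0.14, adjusted p = 0.0075) and in interstitial cells (-0.40 ± 0.14, adjusted p = 0.035; lost without interstitial E or any BMDM library at adjusted p from 0.074 to 0.12). Uqcrfs1, the Rieske iron-sulfur protein, fell in lining cells, from 102 to 106 CPM in BMDM to 60.4 to 71.8 (-0.67 ± 0.20, adjusted p = 0.017; 0.052 without lining B). Its interstitial levels were 74.5, 65.7 and 116 CPM, with F above all BMDM libraries, and without F it was called lower there as well (adjusted p = 0.0074). Uqcrq, a small subunit, fell in interstitial cells (-0.75 ± 0.25, adjusted p = 0.026; lost without interstitial E or any BMDM library at adjusted p from 0.050 to 0.081) and read -0.10 ± 0.24 in lining. Cyc1, the cytochrome c1 subunit, was called in neither, at -0.16 ± 0.18 and -0.43 ± 0.18; without lining A or B the second was called.

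In complex IV, 2 of 14 tested nuclear genes fell in lining cells and 4 in interstitial cells (14.3% and 28.6%, beside 20.5% and 21.3% of all genes tested), and 1 rose in both. Cox5a fell by 0.42 ± 0.14 (adjusted p = 0.028) and 0.61 ± 0.14 (adjusted p = 0.0035), and Cox7a2 by 0.69 ± 0.23 (adjusted p = 0.028) and 0.77 ± 0.23 (adjusted p = 0.016). Only the interstitial call of Cox5a held in all 19 alternatives: without 1 library the others lost theirs, Cox5a in lining without lining C or any BMDM library (adjusted p from 0.053 to 0.10), Cox7a2 in lining without A, B or any BMDM library (0.060 to 0.10) and in interstitial cells without E or F (0.070 and 0.050). Ndufa4, once counted to complex I and now placed with complex IV, fell in interstitial cells: it read 85.1, 71.5 and 65.0 CPM there, 133, 83.6 and 101 in lining and 117, 117 and 117 in BMDM (-0.67 ± 0.18, adjusted p = 0.0087; -0.15 ± 0.18, adjusted p = 0.51 in lining). The difference of lining and interstitial cells for this gene was not called (0.51 ± 0.18, adjusted p = 0.13). Cox4i1, the most abundant nuclear gene of the complex by counts, read -0.08 ± 0.17 and -0.14 ± 0.17 and was not called. Cox7a2l, which joins complexes III and IV into supercomplexes, read -0.05 ± 0.16 and -0.16 ± 0.16.

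Several subunits of complex IV exist in forms that are restricted to certain tissues. The muscle form Cox6a2 (chr7:128205435-128206387, minus strand) was the one nuclear member to rise in both sorted populations, from very few counts: 9, 32 and 8 in lining, 5, 10 and 13 in interstitial cells and 11, 3 and 8 in the deeper BMDM libraries. In CPM that is 3.004 to 4.37, 0.910 to 2.76 and 0.149 to 0.476, with no overlap between sorted cells and BMDM. The log2 fold changes were 3.33 ± 0.88 (adjusted p = 0.0093; lost without BMDM H or I, at 0.078 and 0.063) and 2.48 ± 0.87 (adjusted p = 0.035; lost in 7 of 19 alternatives, without interstitial D or F or any BMDM library among them, at adjusted p from 0.050 to 0.18). The form found in most tissues, Cox6a1, took 97.1% or more of the length-scaled counts of the pair in every library. Summed markers of skeletal muscle were 33.0 to 65.0 CPM in sorted and 17.4 to 22.0 in BMDM libraries, with Mb, Tnnc2, Acta1 and Eno3 called higher in both sorted groups. A non-coding gene that neighbours Cox6a2, Gm44850, read 3.06 ± 0.70, 1.74 ± 2.1 and 0.080 ± 0.075 CPM from 50, 32 and 5 counts in all. It rose in lining (5.10 ± 1.30, adjusted p = 0.0076; 0.051 without BMDM G) and in interstitial cells (4.34 ± 1.28, adjusted p = 0.016), where D had no count and the call was lost without F or any BMDM library (up to 0.086). Whether muscle RNA or the neighbour takes part in the rise of Cox6a2 was not tested.

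The other restricted forms were near or at 0. Cox8b, Cox8c and Cox7b2 had no count in any of the 9 libraries, and Cox8a, the common form, had all the counts of its family. Cox4i2 had 0, 4 and 0 counts in lining, 0, 18 and 5 in interstitial cells and 5, 1 and 3 in BMDM, and Cox6b2 4, 1 and 0, 0, 16 and 5, and 2, 6 and 3. Cox4i2 was tested only in some alternatives. Without D it was called higher in interstitial cells than in BMDM (log2 fold change 3.20, edgeR adjusted p = 0.036). With no filter or without A or C it was not called (adjusted p from 0.073 to 0.19). Without the 3 shallowest libraries its log2 fold change there was 3.19. Cox7a1 stood at 3.17 ± 1.9, 1.62 ± 1.4 and 2.67 ± 0.36 CPM and was not called. Ndufa4l2 (chr10:127514967-127517154, plus strand), a paralog of Ndufa4 known as a target of hypoxia signalling, had 117 counts in interstitial F and 0, 3, 9, 0 and 0 in the other sorted libraries from A to E, and 0, 0 and 1 in BMDM. In F it made up 32.5% of the length-scaled counts of Ndufa4 and Ndufa4l2, where lining C, the next, had 4.05%. It did not pass the filter in the fit used here. It was tested in 10 of the alternatives. It was called higher in interstitial cells than in BMDM with the mean CPM filter and without A, B, D, E or the 3 shallowest libraries (adjusted p from 0.0063 to 0.0225), and not called with no filter or without G, H or I (from 0.073 to 0.095). Libraries F and C are also the sorted ones with the highest endothelial markers (561 and 356 CPM). Markers of smooth muscle and pericytes summed to 268 CPM in F, 217 in E, 90.9 in D and 699 to 1008 in lining. Most of the 7 tested markers of that list did not follow this difference. The part of such cells in the Ndufa4l2 counts was not tested.

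The 8 Ndufaf genes, which help to put complex I together and do not stay in it, were low in all groups and lay lowest of all against BMDM: medians were -0.74 in lining and -0.89 in interstitial cells, with 2 and 3 of 8 called lower (beside 20.5% and 21.3% of all genes tested). Ndufaf1 read 1.94, 2.10 and 7.51 CPM in lining, 15.5, 8.01 and 10.2 in interstitial cells and 16.1, 14.1 and 16.2 in BMDM. All lining libraries were below the other 6. It fell in lining against BMDM (-2.07 ± 0.52, adjusted p = 0.0067), a call that held in all 19 alternatives. Lining against interstitial read -1.58 ± 0.53 (adjusted p = 0.12), and without lining C, whose 20 counts give its 7.51 CPM, that difference was called (-2.40, adjusted p = 0.012). For Ndufaf2 the interstitial libraries were the lowest. It read 11.1, 6.49 and 7.13 CPM in lining, 1.77, 6.28 and 4.04 in interstitial cells and 14.0, 15.2 and 16.1 in BMDM, a fall of 1.80 ± 0.44 log2 units in interstitial cells (adjusted p = 0.0056, held in all 19) and a value of -0.90 ± 0.43 in lining (adjusted p = 0.11, and 0.031 without interstitial D). Ndufaf3 fell in both (-0.96 ± 0.36, adjusted p = 0.046, and -1.19 ± 0.36, adjusted p = 0.017) and Ndufaf4 in interstitial cells (-1.08 ± 0.33, adjusted p = 0.020). These 3 calls were lost without any one BMDM library (adjusted p up to 0.14), those of Ndufaf3 also without lining A or B in lining and without interstitial E in interstitial cells. Ndufaf7, a methyltransferase, was the one gene above 0, at 0.44 ± 0.25 and 0.45 ± 0.25, and was not called.

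Nuclear respiratory genes are known to carry sites for the factors NRF1, GABP (of the ETS family) and YY1 near their start sites. RefSeq promoter windows (GRCm38.p6, from 250 bases before to 50 after the start) were matched for 76 of the 94 nuclear members, and 3 exact letter strings were searched on both strands. The NRF1 string CGCATGCG, which reads the same on both strands, was found in 11 members, 14.5% of 76 against 2.77% of all protein-coding genes with a window. The YY1 string AAGATGGCG was found in 8, 10.5% against 2.14%, and the ETS string CCGGAAG in 18, 23.7% against 12.9%. TATAAA, searched for comparison, was found in 7, 9.21% against 14.8%. No match of one of the first 3 strings overlapped a match of another in a member. A match is a description of the letters and no proof of binding, and a window without the letters says nothing about the factor. The 11 windows with the NRF1 letters are printed 5′ to 3′ on the strand of the gene, with the letters searched in capitals, to show the common core and how its flanks differ.
Atp5g2 (chr15:102671070-102671099, minus strand): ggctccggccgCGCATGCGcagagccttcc
Atp5j (chr16:84835105-84835134, minus strand): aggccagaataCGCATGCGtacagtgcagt
Atp5k (chr5:108434430-108434459, minus strand): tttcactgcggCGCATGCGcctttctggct
Atp5l (chr9:44920963-44920992, minus strand): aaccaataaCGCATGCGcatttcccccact
Cox6a1 (chr5:115349101-115349130, minus strand): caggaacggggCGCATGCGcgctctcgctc
Ndufa11 (chr17:56717692-56717721, plus strand): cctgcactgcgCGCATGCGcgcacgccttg
Ndufa8 (chr2:36049329-36049358, minus strand): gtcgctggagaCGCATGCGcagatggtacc
Ndufaf4 (chr4:24897960-24897989, plus strand): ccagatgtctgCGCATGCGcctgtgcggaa
Ndufaf5 (chr2:140170652-140170681, plus strand): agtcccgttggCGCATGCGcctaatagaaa
Uqcr11 (chr10:80406808-80406837, minus strand): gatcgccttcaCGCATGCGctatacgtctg
Uqcrc1 (chr9:108936668-108936697, plus strand): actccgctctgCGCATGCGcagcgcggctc

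The 11 members that hold these letters did not all pass the test. Atp5j and Ndufa8 (an accessory subunit of complex I) fell in both contrasts with BMDM, and Atp5g2 and Ndufaf4 fell in interstitial cells. Of all genes tested, 20.5% were called lower in lining and 21.3% in interstitial cells, and of the 89 nuclear members 25.8% and 33.7%. Whether the letters take part in these falls was not tested. Ndufa8 read -0.54 ± 0.20 and -0.60 ± 0.20 (adjusted p = 0.049 and 0.029), calls lost without any one lining or BMDM library in lining and without E, G or H in interstitial cells (adjusted p up to 0.15 and 0.10). Not called in either contrast were Atp5k (-0.79 ± 0.40 and -0.92 ± 0.40), Cox6a1 (-0.18 ± 0.21 and -0.43 ± 0.21), Ndufa11 (-0.35 ± 0.25 and -0.14 ± 0.25), Ndufaf5 (-1.54 ± 0.63 and -0.47 ± 0.61), Uqcr11 (-0.03 ± 0.26 and -0.32 ± 0.26), Uqcrc1 (-0.20 ± 0.17 and -0.11 ± 0.17) and Atp5l, whose few counts gave 1.49 ± 0.86 and 0.89 ± 0.84. Without lining A, Atp5k and Cox6a1 were called lower in both contrasts; Atp5k was called in interstitial cells also without C or F. Without D, Atp5l was called higher in lining and Uqcr11 lower in interstitial cells, and without B, Ndufaf5 was called lower in lining cells (adjusted p = 0.013). Atp5j, with the lowest adjusted p of all nuclear members in both contrasts, has a promoter window that holds all 3 strings (chr16:84834927-84835226). The NRF1 letters lie 147, the YY1 letters 88 and the ETS letters 61 bases before the start site of that window. A further window of the same gene, from another start site (chr16:84835576-84835875), holds none of them. The printed stretches with the YY1 and the ETS letters overlap by 4 bases.
Atp5j, ETS letters (chr16:84835019-84835048, minus strand): agctgagggacCCGGAAGcacttaccctcc
Atp5j, YY1 letters (chr16:84835045-84835074, minus strand): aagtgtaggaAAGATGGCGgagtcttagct
Among 16 tested nuclear regulators of respiratory genes, Nrf1 and Yy1 themselves were called in no contrast, and Gabpa was called higher in interstitial cells (0.40 ± 0.15, adjusted p = 0.046), a call lost without lining A or B, interstitial D or E, or any BMDM library (adjusted p up to 0.17). Without lining B or interstitial D, Yy1 was called lower in lining cells, and without lining C, Nrf1 in interstitial cells. The coactivator Ppargc1b read 12.1, 16.9 and 6.38 CPM in lining, 21.3, 36.9 and 31.6 in interstitial cells and 4.07, 3.78 and 2.86 in BMDM, with no overlap of any 2 groups. It rose against BMDM by 1.76 ± 0.38 (adjusted p = 0.003) and 3.08 ± 0.39 log2 units (adjusted p = 5.4e-05); lining against interstitial was -1.32 ± 0.38 (adjusted p = 0.067, and 0.038 without interstitial D). Pparg, a nuclear receptor of lipid metabolism, fell by 3.78 ± 0.62 and 3.30 ± 0.57, and the related coactivator Pprc1 by 1.06 ± 0.24 and 1.37 ± 0.25. Hif1a, which codes for the oxygen-sensing factor, was called between the sorted populations (0.73 ± 0.14, adjusted p = 0.010), at 191, 201 and 189 CPM in lining and 97.1, 131 and 122 in interstitial cells, with BMDM at 190 ± 18.7. The call of Hif1a between the sorted populations was lost without the 3 shallowest libraries together. Against BMDM, Hif1a was called lower in interstitial cells (log2 fold change -0.70).

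Genes around the respiratory chain were read from lists. For every list, the shares of all genes tested are 20.5% lower and 23.1% higher in lining and 21.3% lower and 23.4% higher in interstitial cells. Of 45 tested assembly factors outside the prefix rule, 8 fell and 1 rose in lining cells and 12 fell and 2 rose in interstitial cells (17.8% and 26.7% lower, against 20.5% and 21.3%), with medians of -0.20 and -0.42. The largest changes in lining were the falls of Fastkd5 (-2.30 ± 0.80, adjusted p = 0.036), Cmc2 (-1.95 ± 0.58) and Tmem70 (-1.38 ± 0.33, an assembly factor of complex V), and in interstitial cells the falls of Cmc2 (-1.58 ± 0.56) and Tmem186 (-1.42 ± 0.33) and the rise of Ttc19 (1.31 ± 0.40). Of 21 genes that maintain and transcribe mitochondrial DNA, 3 fell in lining cells and 4 fell and 1 rose in interstitial cells (14.3% and 19.0% lower, both under the share of all genes), with medians of -0.32 and -0.18. The termination factor gene Mterf2 had 117 counts over the BMDM libraries, 1 over the lining and 0 over the interstitial libraries, at least 10.8-fold lower in the last if 3 counts over the group are taken as the floor; the list's median is the same with that bound. Mterf4 fell in lining cells (-1.30 ± 0.37), as did Pnpt1 (-0.72 ± 0.23), and in interstitial cells Slirp (-1.09 ± 0.35) and Tfam, the packaging factor of mitochondrial DNA (-0.86 ± 0.30), fell. Pnpt1 fell in interstitial cells too (-0.65 ± 0.23). Of the calls named here, those of Tmem70 and Cmc2 in lining and of Tmem186 and Mterf2 in interstitial cells held without any one library. The others were lost without 1 library: without any BMDM library for Fastkd5, Mterf2 and Mterf4 in lining and Cmc2, Ttc19, Slirp and Tfam in interstitial cells, and without G or H for Pnpt1 in both. Sorted libraries did the same: A or C for Fastkd5, B or C for Mterf2, B and D for Pnpt1 in lining and interstitial cells, E for Cmc2 and Slirp, and D or F for Tfam. Fastkd5 and Tmem70 were called lower in lining than in interstitial cells without B and D respectively, Tmem70 fell in interstitial cells without F, Slirp fell in lining cells without A, and Ttc19 rose there without C.

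Of 21 electron carriers and feeders, 5 fell and 2 rose in lining cells and 5 fell and 3 rose in interstitial cells (23.8% lower in both, near the 20.5% and 21.3% of all genes), with medians of -0.52 and -0.49. Cycs, which codes for cytochrome c, read 24.3, 24.7 and 27.4 CPM in lining, 27.9, 19.1 and 19.1 in interstitial cells and 56.3, 67.96 and 56.8 in BMDM, and fell by 1.25 ± 0.21 (adjusted p = 0.0005) and 1.48 ± 0.21 log2 units (adjusted p = 0.00013). The coenzyme Q genes split: Coq8a, a kinase-like protein of coenzyme Q synthesis, rose by 3.37 ± 0.45 and 3.63 ± 0.44 and Coq10b by 1.51 ± 0.31 and 1.60 ± 0.31, whereas Pdss1, which makes the side chain of coenzyme Q, fell by 1.48 ± 0.46 and 1.46 ± 0.45, calls lost without any BMDM library. Coq3 fell by 2.29 ± 0.63 in interstitial cells. Of 9 carriers and channels, 3 fell and 2 rose in lining cells and 2 fell and 2 rose in interstitial cells, with medians of -0.28 and -0.16. That is 33.3% and 22.2% lower and 22.2% higher in both, beside 20.5% and 21.3% lower and 23.1% and 23.4% higher of all genes. The uncoupling protein gene Ucp2 rose (0.97 ± 0.20 and 0.69 ± 0.19) with the pyruvate carrier Mpc2 (0.67 ± 0.22 and 0.69 ± 0.22), and Vdac2 fell (-0.53 ± 0.14 and -0.90 ± 0.14). Vdac3 passed the test in lining (-0.56 ± 0.19) and not in interstitial cells (-0.19 ± 0.19). The calls of Mpc2 in both contrasts and of Vdac3 were lost without any BMDM library, without lining B or C in lining and, for Mpc2, without D in interstitial cells (adjusted p up to 0.13), and that of Ucp2 in interstitial cells without H (adjusted p = 0.051). Of 25 import and protein quality genes, 8 fell in lining and 11 in interstitial cells and none rose (32.0% and 44.0% lower, beside 20.5% and 21.3% of all genes), with medians of -0.56 and -0.52. The chaperonin gene Hspd1 fell most, from 226 to 251 CPM in BMDM to 67.7 to 86.4 in lining and 80.6 to 109 in interstitial libraries. The inner membrane translocase genes Timm50 (-0.93 ± 0.24 and -1.28 ± 0.24) and Timm17a (-0.95 ± 0.25 and -0.87 ± 0.25) and the pore gene of the outer membrane, Tomm40 (-0.96 ± 0.28 and -1.09 ± 0.28), fell in both. Without BMDM H, Tomm40 lost its call in lining and Timm17a its call in interstitial cells (adjusted p = 0.065 and 0.056). Of 13 genes of cristae and of fission or fusion, Chchd3 (-0.69 ± 0.18) and Immt (-0.45 ± 0.14) fell in lining and Chchd6 (-1.53 ± 0.48) in interstitial cells. Immt lost its lining call without lining C or BMDM G or H and Chchd6 its call without any BMDM library (adjusted p up to 0.077 and 0.096), while in interstitial cells Chchd3 was called without any one of A, B, C or F and Immt without A, C or F. Between lining and interstitial cells, Hif1a was the only gene called in these 7 lists.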

How the data were processed

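The deposited file holds whole-number read counts per gene for 9 libraries. Per the deposited header, featureCounts 1.6.1 counted reads over exons of Ensembl release 91 genes (mouse build GRCm38), reverse-stranded, with no option for reads that match several places or genes. Per the submitters' processing notes, bcl2fastq 2.17.1.14, cutadapt 1.15, STAR 2.5.4a, DESeq2 1.20.0 and R 3.5.0 were also used; no role is given there.

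Counts were scaled by TMM and tested with edgeR 4.0.16 (quasi-likelihood F-test, robust, 2-sided; R 4.3.3, limma 3.58.1) over all 9 libraries with a mean per group and 6 residual degrees of freedom. Filtering with filterByExpr (minimum count 10, minimum total 15) left 12610 genes, and adjusted p-values (Benjamini-Hochberg) run over all of them. Gene types come from GENCODE M21 and promoter windows from RefSeq. The fitting steps were tested on simulated data. Depth ran from 2194920 to 22499823 counts, so genes with few counts in the shallow sorted libraries are the least precise. Counts read from molecules copied by PCR are not independent, and a floor of 3 counts covers counting error only.

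The members and lists were chosen with earlier results of these data known. Genes were named by a rule: every mitochondrially encoded member; per comparison and complex, and among the Ndufaf genes, up to 4 called members with the largest absolute log2 fold change; tissue-restricted isoforms, c-ring genes, Ndufa4, Ndufa4l2, Cox7a2l and Atpif1 whatever their values; and up to 3 called genes per pathway list and comparison. Named outside it, after their values were seen, were Ndufs1, Ndufs3, Ndufs7, Ndufs8, Ndufv1, Ndufv2, Ndufb2, Ndufb4, Ndufa8, Ndufa11, Sdhd, Cyc1, Uqcrc1, Uqcr11, Cox4i1, Cox6a1, Cox6b1, Cox8a, Atp5a1, Atp5b, Atp5c1, Atp5d, Atp5k, Atp5l, Ndufaf5, Ndufaf7, Cycs, Gabpa, Nrf1, Yy1, mt-Rnr1, mt-Rnr2, Gm13340 and Gm44850. The result of 1 member is not reported here. Alternatives were DESeq2 size factors, library totals, scaling without mitochondrially encoded genes, no filter, a mean CPM filter of 1, the DESeq2 1.42.0 test, limma-voom, the 6 libraries of a comparison alone, and each library left out. Removal of the 3 shallowest libraries (lining A and C, interstitial D), and of lining C with interstitial F, was added after seeing the data. Scripts ran in Python 3.11.15 with pandas 2.3.3, numpy 2.4.6, Biopython 1.88 and matplotlib 3.10.9.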

Additional observations from a re-analysis of the deposited data

Results flagged for a closer look

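The difference between the lining and the interstitial contrast with BMDM for Atp5g2 was 1.14 on the log2 scale, which is the same test as lining against interstitial (edgeR adjusted p = 0.044). It drew attention as the one nuclear member whose contrasts with BMDM differed between both sorted populations by this test. The BMDM libraries are shared by both contrasts and cancel in the difference, and 13 of 19 alternative settings lost the call.

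Ndufb1-ps is typed as a non-coding RNA in the annotation, so the symbol rule left it out, yet it had at least 99 counts in every library, from 99 in lining A to 1006 in BMDM G. The 12 other matching symbols that were left out are processed pseudogenes with at most 3 counts in any library. Ndufb1-ps passed the filter and was called in no contrast by edgeR. Its log2 fold change was -0.07 ± 0.20 for lining against interstitial (adjusted p = 0.89). Against BMDM it was -0.06 ± 0.19 in lining and 0.01 ± 0.19 in interstitial cells (adjusted p = 0.83 and 0.97).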

How the results depend on the processing

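No call of a named gene changed direction. With mitochondrially encoded genes, all 6 calls in each contrast with BMDM kept their count under removal of any 1 library; lower calls numbered 1 in interstitial cells with limma-voom, and between 0 and 1 with 1 library left out. Between the sorted populations the lower calls numbered 3 without lining C and interstitial F together, and 0 to 3 with 1 library left out. For nuclear members in lining against interstitial, the 1 higher call became 0 with library totals, no filter, limma-voom, only the 6 libraries compared and without the 3 shallowest libraries (0 to 1 with 1 library left out). The lower calls became 1 with the DESeq2 test, without those 3 libraries and without C and F (0 to 1 with 1 library left out). Against BMDM, higher calls in lining became 2 with only the 6 libraries compared, without the 3 shallowest libraries and without C and F (0 to 2 with 1 library left out), and lower calls ran from 11 to 28 with 1 library left out against 23. In interstitial cells the 2 higher calls became 1 with library totals, with mitochondrially encoded genes removed and without C and F, 0 with no filter and 7 without the 3 shallowest libraries (0 to 4 with 1 library left out). The 30 lower calls there became 46 with limma-voom and 55 without the 3 shallowest libraries (16 to 38 with 1 library left out). The causes were not tested, apart from the smaller number of libraries where some were left out.

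Calls that held in every alternative were 10 of 23 lower nuclear members in lining, 15 of 30 in interstitial cells, 4 of 6 and 6 of 6 higher mitochondrially encoded members, and 0 of the higher nuclear ones. With 1 library left out, the nuclear medians ran from -0.42 to -0.22 in lining and from -0.45 to -0.26 in interstitial cells, and between the sorted populations from -0.06 to 0.10, across 0. The corresponding mitochondrially encoded medians ran from 0.98 to 1.21, from 1.45 to 1.81 and from -0.59 to -0.28. Removal of the mitochondrially encoded genes before scaling leaves 18 alternatives for them. No paired analysis was possible because the library letters differ in every group and pair no samples. Depth limits Cox6a2, Ndufa4l2, mt-Nd6, Ndufab1 and the Ndufaf genes, whose counts in the shallow libraries were low.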
